A study of Mus musculus with 16 samples.

Results

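On mouse chromosome 14, 2292 regions of differing DNA methylation began between 45 and 80 Mb (genome build mm10), the 35 Mb that hold Gulo and its flanks. They were chosen by position alone from the authors' deposited table of 86510 regions, of which 82057 lay on autosomes. The rest of chromosome 14 held 2110 regions and the other autosomes held 77655. Gulo itself spans chr14:65986787-66009210 in that table, and every region that starts inside the interval was kept. The interval was set with results from this table in view. The positions, levels and differences below therefore describe it and were not tested.

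The study compared kidneys of Gulo-/- mice with kidneys of wild type mice, both on the strain the labels give as C57BL/6. Whole-genome bisulfite sequencing had 2 Gulo-/- and 2 wild type samples, and so did single-cell RNA sequencing. The labels give no age or sex, do not describe the Gulo allele and do not say whether the mice were given vitamin C. They state that kidneys were chopped and mixed before being divided among the assays, but do not tie the libraries to separate animals. Any p-value here therefore reflects library-to-library spread, which may be technical. The methylation table gives 1 mean level per region on each of 2 sides, as a fraction from 0 to 1, without coverage, error or levels for single samples. It does not say which side is which genotype. Differences here are side 1 minus side 2, as the authors deposited them, and cannot be assigned to a genotype. Levels average over all kidney cells, so a different mix of cell types and a different level within a cell type cannot be told apart. Whether the DNA sequence at these CpGs differs between the 2 sides was not tested.

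Gulo encodes L-gulonolactone oxidase, which completes the making of ascorbate, or vitamin C. The mouse makes this enzyme mainly in liver, and ascorbate travels in the blood to the kidney. In mammals most DNA methylation is on cytosines of CpG pairs: intergenic sequence and gene bodies are mostly methylated, while CpG-rich promoters are mostly not. Ascorbate is a cofactor of the TET dioxygenases, which oxidise methylated cytosine.

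The promoter windows of 4 protein-coding genes show the CpGs that the regions measured. RefSeq (GRCm38.p6, the sequence of mm10) gives 250 bases before and 50 after each gene's start. Of the 446 genes of the interval with such a window, 60 shared bases with a region. Dhrs2, Ndrg2 and Peli2 were picked, after their values were seen, as examples of either direction among windows sharing at least 150 bases with a region, and Rgcc because its RNA differed between genotypes. Sequences run 5′ to 3′, and capitals mark the CpGs inside the region.
Dhrs2 promoter, chr14:55221757-55222056, plus strand: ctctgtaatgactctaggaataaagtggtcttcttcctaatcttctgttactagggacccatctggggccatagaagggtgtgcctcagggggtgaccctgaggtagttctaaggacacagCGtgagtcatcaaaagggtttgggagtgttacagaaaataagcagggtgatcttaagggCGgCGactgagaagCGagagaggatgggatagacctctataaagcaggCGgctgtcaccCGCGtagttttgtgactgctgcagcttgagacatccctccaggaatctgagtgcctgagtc
Rgcc promoter, chr14:79301586-79301885, minus strand: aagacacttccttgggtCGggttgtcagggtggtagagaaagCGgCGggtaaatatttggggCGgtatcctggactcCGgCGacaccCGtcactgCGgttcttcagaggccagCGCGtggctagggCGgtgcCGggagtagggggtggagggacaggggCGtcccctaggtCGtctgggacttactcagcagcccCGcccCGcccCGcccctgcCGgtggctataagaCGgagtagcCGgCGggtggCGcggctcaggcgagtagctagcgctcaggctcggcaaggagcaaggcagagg
Ndrg2 promoter, chr14:51913955-51914254, minus strand: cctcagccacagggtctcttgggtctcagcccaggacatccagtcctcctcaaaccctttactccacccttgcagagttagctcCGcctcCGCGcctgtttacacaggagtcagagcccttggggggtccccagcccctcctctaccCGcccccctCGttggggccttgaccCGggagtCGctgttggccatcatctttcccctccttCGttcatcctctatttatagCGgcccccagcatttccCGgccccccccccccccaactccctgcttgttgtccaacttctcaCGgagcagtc
Peli2 promoter, chr14:48120619-48120918, plus strand: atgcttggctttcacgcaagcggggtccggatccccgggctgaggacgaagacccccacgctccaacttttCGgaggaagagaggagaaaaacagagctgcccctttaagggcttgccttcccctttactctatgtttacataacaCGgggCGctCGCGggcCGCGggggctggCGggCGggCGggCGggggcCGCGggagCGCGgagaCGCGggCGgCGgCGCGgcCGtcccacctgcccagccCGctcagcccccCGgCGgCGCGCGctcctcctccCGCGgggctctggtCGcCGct

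Dhrs2 encodes a short-chain dehydrogenase. Its region, chr14:55221879-55222079, had a mean level of 0.521 on side 1 and 0.744 on side 2 (difference -0.223), and all 7 CpGs of the window lay in it. Of all 27025 RefSeq promoter windows, 52.3% held at least 7 CpGs. Rgcc, a regulator of the cell cycle, has a CpG-rich window with 26 CpGs, of which 22 lay in the region chr14:79301638-79301925. That region was at 0.115 on side 1 and 0.247 on side 2. Ndrg2, a gene first described as repressed by MYC, was at 0.267 on side 1 and 0.106 on side 2 over chr14:51913767-51914169, which covered all 11 CpGs of its window. Peli2, an E3 ubiquitin ligase of innate immune signalling, was at 0.303 on side 1 and 0.171 on side 2 over chr14:48120691-48121050. That region covered 32 of the 38 CpGs of its window, and 4.78% of all windows held as many. Another promoter region of Peli2, with 5 CpGs, went the other way, with a difference of -0.194. Both directions thus occurred at promoters, with differences of 0.132 to 0.223 in these 4 genes.

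Regions were dense around Gulo. The interval held 2.79% of all autosomal regions (exact 95% interval 2.68 to 2.91%, counting error only) in 35 of the 2412 autosomal 1 Mb bins with any region, which is 1.45% of those bins. This is 65.5 regions per Mb in the interval, 24.3 in the rest of chromosome 14 and 33.9 on the other autosomes. The number of regions alone was not outside the range seen elsewhere: the fullest bin of the interval held 132 regions, and the fullest autosomal bin outside it held 135, at 80 Mb on chromosome 10.

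The size of the differences set the interval further apart. An absolute difference of at least 0.3 was found in 482 of its 2292 regions (21.0%), in 84 regions of the rest of chromosome 14 (3.98%) and in 3191 on the other autosomes (4.11%). At 0.5 or more the interval held 65 regions (2.84%), the rest of chromosome 14 held 1 (0.0474%) and the other autosomes held 18 (0.0232%). The interval therefore held 12.8% of the autosomal regions at 0.3 or more and 77.4% of those at 0.5 or more (exact 95% interval 67.0 to 85.8%). The median absolute difference moved less, at 0.224 in the interval (quartiles 0.178 and 0.285), 0.194 in the rest of chromosome 14 and 0.191 on the other autosomes. Regions wider than 1000 bases made up 6.02% of the interval, 2.70% of the rest of chromosome 14 and 1.62% of the other autosomes.

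**Figure D1:**
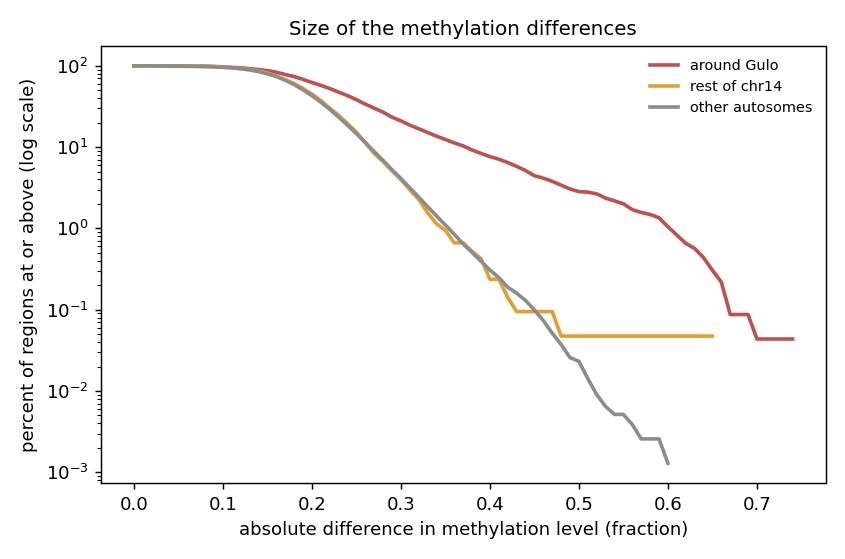
Percent of regions (y axis, log scale) whose absolute difference in methylation level (x axis, fraction) is at or above each value, for the interval around Gulo, the rest of chromosome 14 and the other autosomes. At a difference of 0.15 the interval's line is already above the other two, at 87.4% against 81.5 and 79.8%. At 0.5 it stands at 2.84%, against 0.0474% in the rest of chromosome 14 and 0.0232% on the other autosomes.

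Side 1 was the higher side in 1461 of the 2292 regions, or 63.7% (exact 95% interval 61.7 to 65.7%, counting error only, and neighbouring regions are not independent). The share was 51.3% in the rest of chromosome 14 and 44.2% on the other autosomes. The sex chromosomes, with 4453 regions, were as one-sided, at 70.2%, with median levels of 0.835 on side 1 and 0.668 on side 2, and 5.73% of their regions were at 0.3 or more. Among the regions of at least 0.3 the contrast was wider: side 1 was higher in 435 and lower in 47 in the interval, higher in 22 and lower in 62 in the rest of chromosome 14, and higher in 820 and lower in 2371 on the other autosomes. The median level in the interval was 0.7997 on side 1 and 0.628 on side 2. On the other autosomes it was 0.692 on side 1 and 0.711 on side 2. Against the other autosomes the interval thus stood higher on side 1 and lower on side 2. In the rest of chromosome 14 the medians were 0.754 on side 1 and 0.716 on side 2. From 40 to 45 Mb they were 0.7998 on side 1 and 0.702 on side 2, and from 80 to 85 Mb 0.872 and 0.713. The side 1 level of the interval was thus matched or exceeded just outside it. The side 2 level of the interval was below that of each of these parts.

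Where the difference was 0.5 or more, 64 of 65 regions were higher on side 1, and these paired a high level with a low one. Their side 1 levels ran from 0.611 to 0.964 with a median of 0.873, and 61 of them were at 0.7 or more. Their side 2 levels ran from 0.0672 to 0.413 with a median of 0.287, and 62 were under 0.4. They were CpG-poor and lay far from gene starts, with a median of 1.003 CpGs per 100 bases and of 43.5 kb to the nearest annotated start, against 2.35 CpGs and 20.5 kb over all regions of the interval. Of these 64 regions, 45 were distal intergenic, 15 intronic, 2 downstream of a gene, 1 exonic, 1 in a 3′ UTR and 0 in a promoter. They hold few CpGs, 4 to 15 with a median of 5, so each mean level rests on few sites. How deeply those sites were covered is unknown.

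**Figure D2:**
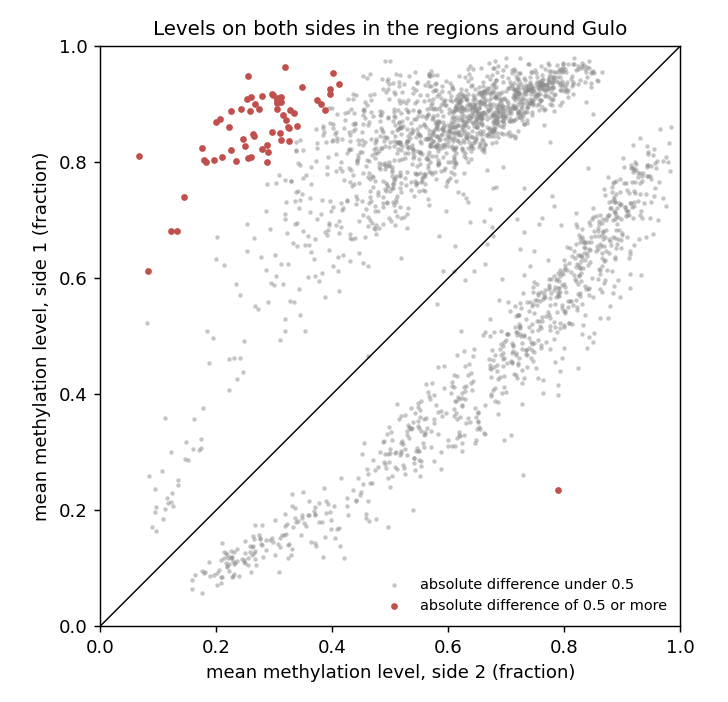
Mean methylation level on side 1 (y axis, fraction) against side 2 (x axis, fraction) for the 2292 regions around Gulo, 1 point per region, with the line of equal levels. Red points are the 65 regions with an absolute difference of at least 0.5: 64 lie at the upper left, with side 1 from 0.611 to 0.964, and 1 lies at the lower right.

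The differences did not peak at Gulo, and they did not fall off evenly with distance from it. From 46 to 55 Mb there were 91.3 regions per Mb, 78.5% of them higher on side 1, and 242 of 822 at 0.3 or more. From 55 to 61 Mb there were 40.2 per Mb, 34.9% higher on side 1, and 20 of 241 at 0.3 or more. From 61 to 66 Mb, just below Gulo, there were 50.2 per Mb, with 33 of 251 at 0.3 or more. From 66 to 72 Mb, which begins within Gulo, the values were 89.7 per Mb, 70.3% higher on side 1, and 134 of 538 at 0.3 or more. Within that stretch the 1 Mb bins at 66 and 67 Mb held 11 and 7 regions at 0.3 or more, and the bin at 68 Mb held 25. From 72 to 80 Mb there were 50.8 per Mb, 51.7% higher on side 1, and 51 of 406 at 0.3 or more. These limits were drawn after the profile had been seen.

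Just outside, the 5 Mb from 40 to 45 Mb held 18.2 regions per Mb with 3 of 91 at 0.3 or more, and the 5 Mb from 80 to 85 Mb held 15.6 per Mb with 5 of 78. Side 1 was higher in 67.0% of the regions from 40 to 45 Mb and in 76.9% of those from 80 to 85 Mb, against 63.7% inside. In single 1 Mb bins the highest number of regions at 0.3 or more was 45, at 53 Mb, and the next was 42, at 71 Mb. The highest such number in any of the 2377 autosomal bins outside the interval was 11, at 32 Mb on chromosome 2, and 14 of the 35 bins of the interval exceeded it. The bin at 71 Mb had 70 of its 73 regions higher on side 1, a median absolute difference of 0.322, and 11 regions at 0.5 or more. Outside the interval no autosomal bin had more than 1 region at 0.5 or more. Near both ends of the interval large differences were few: the bin at 45 Mb held 2 regions at 0.3 or more and the bins at 77 and 78 Mb held 0.

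**Figure D3:**
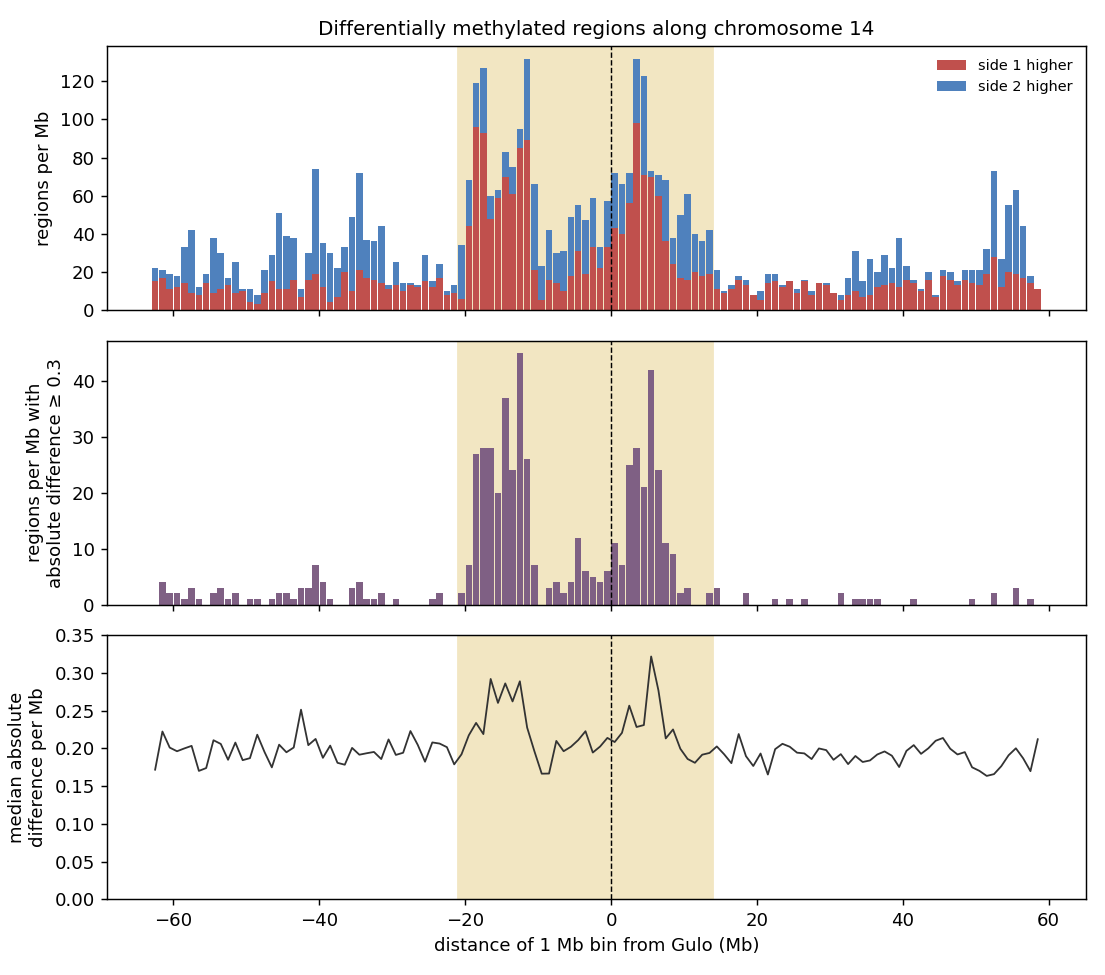
Regions per 1 Mb bin of chromosome 14 by direction (top), regions per bin with an absolute difference of at least 0.3 (middle) and median absolute difference per bin (bottom), against distance from Gulo in Mb (x axis, dashed line at Gulo, shaded interval). The bins with most large differences stand in 2 blocks, 1 below and 1 above Gulo, with 45 and 42 at their highest and lower counts between them. The bins at 66 and 67 Mb, next above Gulo, held 11 and 7, and the bin at 68 Mb held 25.

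At both ends of the interval the regions on either side of the border were lower on side 1. The first region inside, in intron 17 of Txndc16, was at 0.634 on side 1 and 0.887 on side 2, and the last outside, beside Ptger2, the EP2 prostaglandin receptor gene, was at 0.647 on side 1 and 0.895 on side 2. At the high end the last inside, near Gm10845, was at 0.342 on side 1 and 0.563 on side 2, and the first outside, in Olfm4, was at 0.456 on side 1 and 0.701 on side 2. Consecutive regions of the interval lay a median of 7.55 kb apart, against 14.6 kb on the other autosomes.

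Gulo itself carried 3 regions of mixed direction. In intron 5 of 11, chr14:66000849-66001042 (7 CpGs) was at 0.479 on side 1 and 0.840 on side 2, a difference of -0.360. In the same intron, chr14:66001304-66001815 (10 CpGs) was at 0.894 on side 1 and 0.628 on side 2, a difference of 0.265. At the promoter, chr14:66009219-66009442 (6 CpGs) was at 0.208 on side 1 and 0.402 on side 2, a difference of -0.195. The first is among the 6 largest of the interval with side 1 lower and the second intronic region goes the other way.

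Below Gulo the nearest regions were in the stretch from 61 to 66 Mb, with 50.2 regions per Mb. Near Scara3, a scavenger receptor gene, chr14:65905217-65905668 was at 0.856 on side 1 and 0.546 on side 2. The next 2 lay in intergenic sequence near Ccdc25 and in its intron 7, at 0.419 and 0.730 on side 1 and at 0.639 and 0.914 on side 2. Above Gulo, regions in introns 6 and 3 of Adam2, which encodes the sperm protein fertilin beta, were at 0.872 and 0.561 on side 1 and at 0.713 and 0.812 on side 2. Of these 5 neighbours and 3 Gulo regions, 3 were higher on side 1 and 5 were lower.

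Among regions with at least 5 CpGs, the largest difference in the table's interval was 0.744, at chr14:51307316-51307757, an intergenic region nearest to 4930597G03Rik with 0.811 on side 1 and 0.0672 on side 2. Next came chr14:54889237-54889507, near Pabpn1, the nuclear poly(A)-binding protein gene, with 0.948 on side 1 and 0.255 on side 2. Regions near Gm4251, Itm2b, Ear7 and in the annotated intron of Dad1 followed, with differences of 0.667, 0.655, 0.651 and 0.650. Itm2b encodes an integral membrane protein linked to dementia, Ear7 an eosinophil-associated ribonuclease, and Dad1 a subunit of oligosaccharyltransferase. All 6 were annotated as intergenic or intronic.

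In the other direction the largest was -0.554, at chr14:50903864-50904788, 10.6 kb from the start of the Kelch-like gene Klhl33. It held 29 CpGs, at 0.234 on side 1 and 0.789 on side 2. Those near Atg14, an autophagy initiation gene, in intron 1 of Dleu7, in exon 2 of the red cell cytoskeleton gene Dmtn and near 4933429O19Rik had differences of -0.469, -0.379, -0.377 and -0.360. The remaining member of the 6 largest is the Gulo intron 5 region above. Side 1 levels of these 6 ran from 0.234 to 0.479 and side 2 levels from 0.707 to 0.840.

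By annotation, 994 regions of the interval were distal intergenic (43.4%), 850 intronic (37.1%), 180 in promoters (7.85%) and 168 exonic (7.33%). On the other autosomes the shares were 41.1, 38.6, 9.05 and 7.14% in the same order. Side 1 was higher in 70.6% of the distal intergenic regions of the interval, against 56.5% on the other autosomes. In introns it was higher in 63.5%, against 38.7%, and in exons in 54.2%, against 37.7%. The rest of chromosome 14 stood at 65.7% in distal intergenic sequence, 43.0% in introns and 29.2% in exons. Regions of at least 0.3 made up 26.3% of the distal intergenic and 19.5% of the intronic regions of the interval, against 3.77 and 5.06% on the other autosomes.

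**Figure D4:**
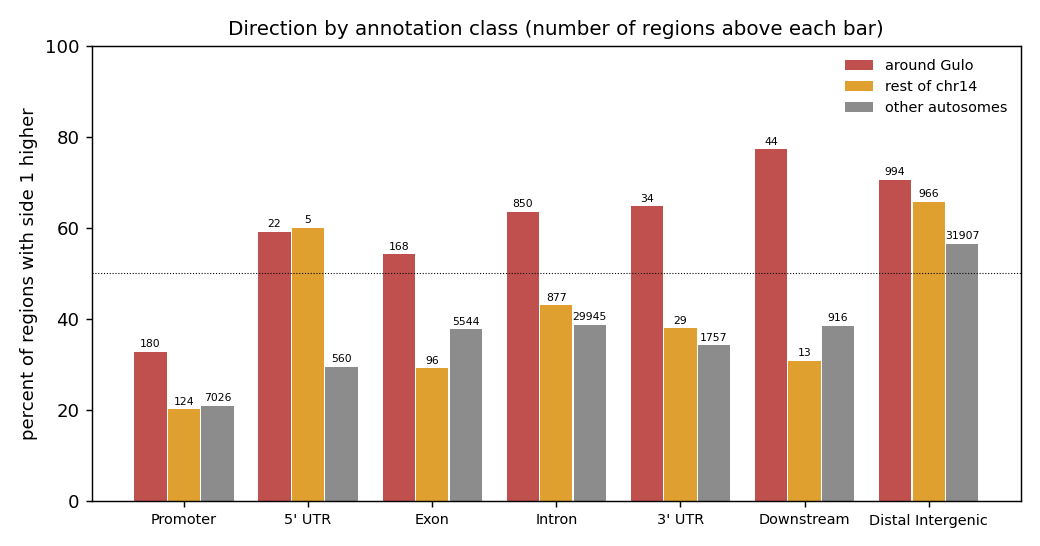
Percent of regions with side 1 higher (y axis) by the annotation in the authors' table (x axis), for the interval around Gulo, the rest of chromosome 14 and the other autosomes, with the number of regions above each bar and a dotted line at 50%. The interval's bar is above that of the other autosomes in each of the 7 classes, at 32.8 against 20.9% in promoters and 70.6 against 56.5% in distal intergenic sequence.

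CpG density divided the regions further. Quartile limits of CpGs per 100 bases were taken over all autosomal regions. In the quartile with the fewest (below 1.83) the interval had 792 regions, 76.8% higher on side 1 and 38.1% at 0.3 or more. The other autosomes had 53.2% and 6.70% there. In the densest quartile (above 4.13) the interval had 472 regions, 48.3% higher on side 1 and 8.05% at 0.3 or more, where the other autosomes had 39.9% and 1.72%. Among the 490 regions of the interval with at least 10 CpGs, 46.1% were higher on side 1, against 27% on the other autosomes. In the quartiles between, 60.6 and 61.1% were higher on side 1, against 42.3 and 41.5% on the other autosomes. Side 1 was thus the more frequent higher side in all but the densest quartile of the interval, and its share was above that of the other autosomes in each of the 4.

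Promoters went the other way. Of the 180 promoter regions of the interval, 121 were lower on side 1 and 59 were higher (32.8%, against 20.9% on the other autosomes), and the median level was 0.213 on side 1 and 0.337 on side 2. With 20 or more CpGs, 44 of 54 were lower on side 1 (81.5%), with 0 at 0.3 or more. On the other autosomes the share was 84.7% of 2813. With fewer than 20 CpGs, 77 of 126 were lower (61.1%), against 75.3% of 4213 on the other autosomes, and 14 were at 0.3 or more (11.1%, against 3.44%). Levels of the CpG-rich promoter regions were close to those elsewhere, at a median of 0.137 on side 1 and 0.249 on side 2 in the interval and of 0.143 and 0.261 on the other autosomes.

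The 8 promoter regions with the largest excess of side 1 had differences of 0.337 to 0.482. They belonged to Gm9199, Samd4, Olfr747, Slc7a8, Olfr1513, 4931414P19Rik, Gm10364 and Adam28. Samd4 encodes an RNA-binding translational repressor, and its region, 0.918 kb before the start, was at 0.792 on side 1 and 0.391 on side 2. Slc7a8 encodes LAT2, a neutral amino acid transporter of the proximal tubule's basolateral membrane, and its region was at 0.739 on side 1 and 0.362 on side 2. That of Adam28, a metalloprotease gene of lymphocytes and epithelia, was at 0.886 on side 1 and 0.549 on side 2. Each of these 8 regions held 4 to 8 CpGs.

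The 8 in the opposite direction had differences of -0.247 to -0.328. The largest was at Fitm1, which encodes a lipid droplet-forming protein, with 0.456 on side 1 and 0.783 on side 2 over 19 CpGs. Itm2b, Rnase4, Bmp1, Mir378c, Epsti1 and Cpne6 were among the others. Bmp1, the procollagen C-proteinase gene, had the most CpGs of the 8, 49, at 0.119 on side 1 and 0.384 on side 2. Itm2b, with a difference of -0.280 at its promoter and of 0.655 at 22.6 kb from its start, had both directions within 1 gene's neighbourhood. Of the interval's 308 genes nearest to 2 or more regions, 227 had both directions, a share for which no value elsewhere is given. Consecutive regions had the same direction in 65.9% of pairs in the interval and in 61.6% on the other autosomes.

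The interval holds several gene clusters, which were examined as groups. The T cell receptor alpha and delta locus, whose segments are joined in developing T cells, covers 1.80 Mb (chr14:52427967-54224198) with 204 segments in RefSeq. It held 146 regions, of which 134 were higher on side 1, with a median absolute difference of 0.280, and 62 were at 0.3 or more (42.5%). Of these 146, 28 were wider than 1000 bases, among them the widest of the interval, chr14:53669646-53674951, with 0.833 on side 1 and 0.374 on side 2 over 17 CpGs. The authors' table names no segment, and lists the widest under Dad1, a gene just beyond the locus.

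The olfactory receptor cluster (chr14:49894258-50744324), genes for odorant receptors of nasal neurons, held 46 regions. Of these, 45 were higher on side 1, with a median absolute difference of 0.287, and 19 were at 0.3 or more (41.3%). Olfr743, Olfr747 and Olfr749 were among its receptors, with largest differences of 0.551, 0.391 and 0.595. Both loci lie in the stretch from 46 to 55 Mb. With them included, 78.5% of its 822 regions were higher on side 1 and 29.4% were at 0.3 or more. Outside both loci the interval kept 2100 regions, 61.05% higher on side 1, with a median absolute difference of 0.220 and 19.1% at 0.3 or more. Of the 482 regions at 0.3 or more, 401 lay outside these 2 loci.

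Secreted ribonucleases, a family that includes angiogenins and the eosinophil-associated proteins, were nearest to 36 regions, 29 higher on side 1, with 15 at 0.3 or more. Inside these genes 4 of 9 regions were higher on side 1. Rnase10 had 2 regions, at differences of 0.604 and 0.635, and Rnase2a reached 0.600, while the single region of Rnase6 was at -0.140. Mast cell and lymphocyte proteases were nearest to 5 regions, 3 higher on side 1 and 0 at 0.3 or more.

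Developmental regulators were nearest to 198 regions, 122 higher on side 1 (61.6%, against 63.7% over the interval), with a median absolute difference of 0.221 and 41 at 0.3 or more (20.7%). Of the 99 regions inside these genes, 47 were higher on side 1 and 52 lower. Their genes differed among themselves. Stc1, which encodes the calcium and phosphate hormone stanniocalcin 1, had 24 of 27 regions higher on side 1 and 12 at 0.3 or more, with 0.584 as the largest. Gfra2, the neurturin receptor gene, had 23 of 26 higher, with 0.617 as the largest. Loxl2, a collagen and elastin cross-linking enzyme gene, had 6 of 6 higher. Tsc22d1 had 4 of 16 higher and Fgf9 8 of 22. Bmp4, a growth factor of kidney development, had 1 of 6 higher and none at 0.3 or more.

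Solute carriers were nearest to 57 regions, 27 higher on side 1 (47.4%) and 30 lower, with 15 at 0.3 or more (26.3%). Slc35f4 had 10 of 11 higher, with 0.513 as the largest, in its intron 1. Slc25a30, which encodes a mitochondrial carrier first described in kidney, had 0 of 8 higher. Slc7a8 was divided, with 7 higher and 8 lower, and its largest difference was 0.528 (0.817 on side 1 and 0.289 on side 2). Slc39a14, the zinc and manganese transporter ZIP14, had 4 of 7 higher, and Slc7a7, the basolateral cationic amino acid exchanger y+LAT1, 3 of 7.

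RNA of the interval's genes is a readout that the choice of the interval did not use, and it has genotypes and replicates. UMIs (unique molecules counted per gene and cell) were summed per library over proximal tubule-like cells, the cells that reabsorb most filtered solutes. The class, named from 16 markers including Slc34a1, Lrp2 and Miox, held 909 and 2950 cells in Gulo-/- replicates 1 and 2, and 1292 and 5909 cells in wild type replicates 1 and 2. The sums came to 3858556 and 11626269 UMIs in Gulo-/- libraries and 7228812 and 37263414 in wild type libraries. Of the cells kept, the class made up 49.2 and 23.8% in Gulo-/- libraries, against 82.0 and 84.1% in wild type libraries. Xist and Ddx3y counts gave a male and a female library in each genotype. Of the 1575 barcodes kept in wild type replicate 1, 771 recurred among the 7799 of replicate 2 and were removed from the second. The other pairs of libraries shared 6 to 139 barcodes. Whether the 2 wild type libraries are independent was not tested. Clusters 0, 7, 8, 12 and 15 held 98.98% of the class in wild type replicate 2, and 0.110, 0.0339 and 1.86% of it in Gulo-/- replicates 1 and 2 and wild type replicate 1.

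Gulo RNA could not be measured. All cells kept held 0 and 2 Gulo UMIs in Gulo-/- libraries and 0 and 1 in wild type libraries, which does not check the genotype.

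Of 203 genes of the interval that were tested, 4 (1.97%) differed between genotypes at an adjusted p under 0.05 by edgeR's quasi-likelihood test, 2 higher and 2 lower in Gulo-/- libraries. Over all 10996 genes tested, 50 did (0.455%). At an unadjusted p under 0.05 the counts were 43 of 203 (21.2%) in the interval and 1706 of 10996 (15.5%) overall. The genotypes' libraries did not overlap for 104 genes of the interval (51.2%), against 49.5% of all genes. The median log2 fold change, Gulo-/- over wild type, was -0.03 in the interval and 0.03 over all genes.

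Rpgrip1 encodes a protein of the photoreceptor connecting cilium. It had 0 and 1 UMIs in Gulo-/- libraries, against 72 and 204 in wild type libraries, or 0 and 0.0790 CPM (counts scaled to a common library total) against 10.96 and 5.48. Both Gulo-/- libraries lay below both wild type libraries. Over the pooled libraries its level in Gulo-/- cells was 0.0104 of that in wild type cells (exact 95% interval 0.000263 to 0.0585, counting error only), and the adjusted p was 0.0388. Its gene overlaps Supt16 and a pseudogene, and the sources used here do not say whether counting used strand. It was nearest to 7 regions, 5 higher on side 1, with the largest in intron 6 at 0.732 on side 1 and 0.426 on side 2.

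Rgcc had 84 and 155 UMIs in Gulo-/- libraries, against 14 and 64 in wild type libraries, or 21.6 and 12.3 CPM against 2.13 and 1.72. It rose by 3.15 ± 0.39 on the log2 scale (SE, n = 2 each, edgeR adjusted p = 0.0388), with both Gulo-/- libraries above both wild type libraries. Rgcc was also among the 10 leading genes of the endothelial-like clusters 9 and 29, and the endothelial markers in the same sums, given below, were higher in both Gulo-/- libraries. All 5 of its regions were lower on side 1, from 0.133 at the promoter shown above to 0.247 in intron 2, in absolute terms. Eddm3b, an epididymal secretory protein gene, had 22 and 72 UMIs in Gulo-/- libraries, against 0 and 11 in wild type libraries, and 5.67 and 5.69 CPM against 0 and 0.295. Its pooled level in Gulo-/- cells was 24.6 times that in wild type cells (exact 95% interval 13.1 to 50.9, counting error only; edgeR adjusted p = 0.0479). Of its 3 regions, 2 were higher on side 1, and the largest, 4.14 kb from its start, was at 0.873 on side 1 and 0.320 on side 2.

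Gm15217, a long noncoding RNA gene, had 38 and 140 UMIs in Gulo-/- libraries, against 262 and 1948 in wild type libraries, or 9.79 and 11.1 CPM against 39.9 and 52.3. It fell by 2.14 on the log2 scale (SE 0.27, n = 2 each, edgeR adjusted p = 0.0388), without overlap between genotypes. It shares 84 bases with Bmp4, and whether reads in that overlap were assigned by strand is not known. It was nearest to 12 regions, 5 higher on side 1, of 0.136 to 0.301 in absolute terms.

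**Figure D5:**
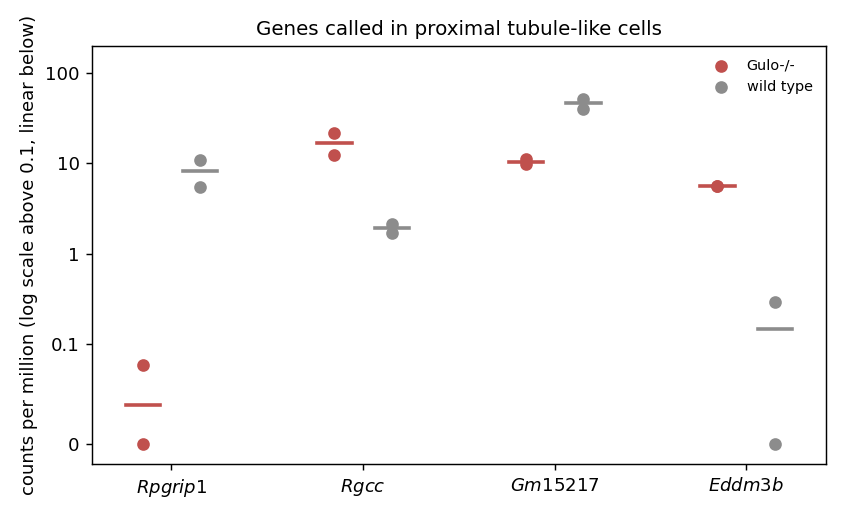
Levels (CPM) in proximal tubule-like cells (y axis, log above 0.1 and linear below) of the 4 genes of the interval that passed the test, 1 point per library and a bar at the mean of 2 libraries. Gulo-/- points lie below wild type for Rpgrip1 and Gm15217 and above for Rgcc and Eddm3b, with no overlap.

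Each of the 4 calls depended on the fit. With the sex of the library as a term, edgeR called 0 of 203 genes (2 of all 10996), with 44 at an unadjusted p under 0.05 (1551 of all). Without Gulo-/- replicate 1 or Gulo-/- replicate 2 it also called 0, and 1 of all genes in each fit. Without wild type replicate 1 there were 9 calls (333 of all 11944) and without wild type replicate 2 there were 2 (38 of all 11209). With 1 library left in a genotype, its spread is assumed to equal that of the other genotype. Over 10 alternatives Rpgrip1 and Eddm3b were called in 6 and Rgcc and Gm15217 in 5, all in the same direction, with adjusted p up to 0.170, 0.291, 0.258 and 0.174.

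Levels of cell type markers were set side by side in the same summed counts. Of 14 marker lists, 5 were higher in both Gulo-/- libraries than in both wild type libraries (principal cell, thin limb, endothelial, stromal and podocyte). Of the rest, 1 was lower (proximal tubule) and 8 overlapped. Such separation was frequent in single genes too: the genotypes' libraries did not overlap for 49.5% of all genes tested. The 9 endothelial markers, each detected in every library, summed to 56.8 and 57.0 CPM in Gulo-/- libraries, against 12.5 and 16.5 in wild type libraries. The 16 proximal tubule markers, each detected in every library, summed to 17943 and 16018, against 28059 and 37530. The part of these differences in the calls was not tested.

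Further genes of the interval with the lowest p did not pass the threshold and are given as values. Ephx2, the soluble epoxide hydrolase gene, was at 87.6 and 91.5 CPM in Gulo-/- libraries and 193.0 and 225.6 in wild type libraries (log2 fold change -1.22, edgeR adjusted p = 0.0774). Ktn1, which encodes the endoplasmic reticulum protein kinectin, was at 19.6 and 26.6 in Gulo-/- libraries and 8.52 and 9.83 in wild type libraries (edgeR adjusted p = 0.111). It was nearest to 20 regions, 16 higher on side 1. Dhrs4, a peroxisomal retinal reductase gene, was at 184.2 and 212.9 in Gulo-/- libraries and 431.5 and 390.4 in wild type libraries (edgeR adjusted p = 0.141), and all 7 of its regions were lower on side 1. Msra, which repairs oxidised methionine, was at 285.2 and 248.6 in Gulo-/- libraries and 627.7 and 484.3 in wild type libraries (edgeR adjusted p = 0.156). Bmp4 was at 19.1 and 22.4 in Gulo-/- libraries and 9.59 and 10.9 in wild type libraries (edgeR adjusted p = 0.164), and Fitm1 at 103.3 and 87.2 in Gulo-/- libraries and 196.3 and 148.1 in wild type libraries (edgeR adjusted p = 0.191). The other 6 were Gm26782, Rcbtb2, Ppp1r3e, Ccdc122, N6amt2 and Gm15222, with log2 fold changes from -2.00 to 1.30. Gm15222 shares 1805 bases with Bmp4.

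Promoter regions and RNA were set side by side. Of the tested genes, 58 had a promoter region with side 1 lower as its largest, with a median log2 fold change of 0.07. Of these 58, 2 were called, Rgcc and Rpgrip1, and 15 (25.9%) had an unadjusted edgeR p under 0.05. The 18 with side 1 higher had a median of 0.13, with 0 called and 1 (5.56%) at an unadjusted p under 0.05. Over the interval's 203 tested genes, 1.97% were called and 21.2% had an unadjusted p under 0.05. Over all genes tested the shares were 0.455 and 15.5%. A difference between the 2 promoter groups was not tested. Over the 203 tested genes the median was -0.03. Of these, 161 were nearest to a region, and 33 of them (20.5%) had an unadjusted p under 0.05, against 21.2% over the 203.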

How the data were processed

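Kidney samples, 2 Gulo-/- and 2 wild type per assay, were grouped by the genotype in the labels, and single-cell RNA and bisulfite data were used. The m6A and bulk RNA samples were not analysed here. The region table, as the authors deposited it, gives a methylation fraction per region and side, pooled by the authors, and an area score that no result uses. The submitters' processing notes name build mm10, MACS2 2.1.2 and Seurat 2.3.4. The aligner, the caller and its filters are not given in the sources used here, so which differences entered the table, and at what coverage, is unknown. Coordinates are printed as deposited. In plus-strand RefSeq promoter windows of all chromosomes, 1093 of 1093 region starts lay 1 base after the C of a CpG and 626 of 626 ends on such a C.

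The deposited single-cell matrices hold raw UMI counts. Barcodes with at least 500 UMIs, 200 genes and at most 50% mitochondrial UMIs were kept, doublets were removed by Scrublet score up to 0.8% per 1000 barcodes, since its automatic threshold called 0 in wild type replicate 2, and cells were clustered with scanpy 1.11.5 and leidenalg 0.10.2 (2000 variable genes, 30 components, 15 neighbours, resolution 1, seed 0). Totals were 10073836 and 88925323 UMIs in Gulo-/- libraries and 10208946 and 61688164 in wild type libraries. Counts summed over proximal tubule-like cells were tested with edgeR 4.0.16 (TMM, filterByExpr, robust quasi-likelihood, Benjamini-Hochberg over 10996 genes, threshold 0.05), checked on simulated data. DESeq2 1.42.0 was an alternative. Promoter sequences and gene spans came from RefSeq GRCm38.p6.

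The interval, the gene lists and the regions and genes named were chosen with earlier results of these data known. The rule named the 3 regions nearest to Gulo on each side and those inside it, the 6 largest per direction with at least 5 CpGs, the 8 largest promoter regions per direction with 1 per gene, the regions at the borders, each gene called and the 12 with the next lowest p. One promoter region that the rule named is not reported here. For RNA genes, Slc7a8 and Slc35f4, and for the widest region, single regions were picked after their values were seen. Regions got counts, medians and exact Clopper-Pearson intervals without a test. Alternatives were a larger minimum difference, more CpGs, a narrower interval, leaving out receptor clusters, and other fits of the counts.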

Additional observations from a re-analysis of the deposited data

How the results depend on the processing

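The interval's share of autosomal regions was 2.79%, the share higher on side 1 was 63.7% and the median absolute difference 0.224. With an absolute difference of at least 0.2 these were 4.0%, 70.9% and 0.266. With at least 10 CpGs they were 2.63%, 46.1% and 0.202, so that the majority turned to side 2. Within 10 Mb on each side of Gulo they were 1.45%, 60.1% and 0.220. Without the chemosensory receptor and T cell receptor clusters they were 2.52%, 60.6% and 0.219. The interval of 10 Mb on each side is shorter, so its 1.45% cannot be set against 2.79%. From low to high position, its 5 Mb bands held 35.0, 50.4, 92.8 and 59.8 regions per Mb, against 33.9 on the other autosomes. Against the other autosomes the share higher on side 1 and the median difference stayed above in these 4 settings. The cause of each shift was not tested.

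Of the interval's genes, 4 were called with edgeR, and 4 with RLE size factors. Without a filter beyond 1 UMI 22 were called (868 of all 16901 genes), and DESeq2's Wald test called 10 (306 of all). With the sex of the library as a term 0 were called (44 at an unadjusted p under 0.05). Over sums of all kept barcodes 0 of 252 were called, with 77 at an unadjusted p under 0.05, against 4393 of all 14039 genes. Leaving out 1 library gave 0 to 9 calls. Gulo-/- and wild type libraries share replicate numbers. Same-numbered libraries' deviations correlated at 0.023, so the numbers were not taken to pair them. With the replicate block 13 genes of the interval were called, and 356 of all. Of the named genes' values under 10 alternatives, 19 gained a call, 18 lost one, 123 stayed on their side of the threshold, most of them of uncalled genes, and 0 changed direction. With 2 libraries per genotype and no methylation values per sample, neither the calls nor the regions have more than this check.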
